A study of Mus musculus with 2 samples.

Results

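The genes described here are 7 C-type lectins of mononuclear phagocytes: Cd209a, Cd209d and Cd209e of the DC-SIGN family, the macrophage galactose lectins Mgl2 and Clec10a, the mannose receptor Mrc1, and langerin, Cd207. They were chosen by symbol from the 31053 genes listed in both libraries, and 7 of 7 were found. The set was selected on family membership but proposed with earlier results of the same 2 libraries known, in which lectin levels by cluster had been seen, so every level and ratio below is a description of these cells and none is a test. The L-cDC library held tdTomato+ spleen cells, and the M-cDC library, against which it was set, held tdTomato- spleen cells. Both came from naive, untreated mice, 7 to 9 weeks old, of the genotype Il7r-cre; Rosa26-lsl-tdTomato. Cells bearing CD11c had been enriched with magnetic beads before the sort. In these animals Cre follows the Il7r gene, the interleukin 7 receptor chain of lymphoid progenitors, and a cell stays tdTomato+ once it or an ancestor has expressed it. The mark therefore records a history of Il7r expression and not a present state, and the number of mice behind each library is not given in the sources used here.

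C-type lectins bind sugars through a calcium-dependent recognition domain, and dendritic cells and macrophages use them to capture glycoproteins and microbes for uptake and antigen presentation. DC-SIGN family members and the mannose receptor bind mannose- and fucose-rich glycans, whereas the macrophage galactose lectins bind galactose or N-acetylgalactosamine. In mouse spleen Cd209a is known from cDC2 and monocyte-derived cells, and Cd207 from part of the cDC1.

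The 3 CD209 genes lie close together on chromosome 8 of GRCm38, all protein-coding and on the minus strand, within 135159 bases. Cd209a spans positions 3743397 to 3748984, Cd209e 3847965 to 3854309 and Cd209d 3871824 to 3878555. Mgl2 (70130329 to 70137550) and Clec10a (70156197 to 70170834) are neighbours on the plus strand of chromosome 11 with 18646 bases between them. Mrc1 lies on chromosome 2 at 14229392 to 14332057 (plus strand), and Cd207 on chromosome 6 at 83671215 to 83677857 (minus strand). The promoters of the CD209 trio are printed because these neighbouring paralogs differed in the clusters that expressed them. Each runs 5′ to 3′ on the gene's own strand, from 250 bases before the start to 50 after it, as RefSeq gives it for GRCm38.p6. Capitals mark the E-box, CANNTG, the motif bound by Tcf4 and other basic helix-loop-helix factors; the motif reads as CANNTG on both strands.
Cd209a, chr8:3748935-3749234: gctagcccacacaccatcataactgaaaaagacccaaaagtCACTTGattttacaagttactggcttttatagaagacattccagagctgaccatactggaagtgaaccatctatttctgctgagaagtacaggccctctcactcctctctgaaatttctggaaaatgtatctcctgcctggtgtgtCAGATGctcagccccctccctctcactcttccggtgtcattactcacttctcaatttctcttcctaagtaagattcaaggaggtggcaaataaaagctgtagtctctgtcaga
Cd209d, chr8:3878450-3878749: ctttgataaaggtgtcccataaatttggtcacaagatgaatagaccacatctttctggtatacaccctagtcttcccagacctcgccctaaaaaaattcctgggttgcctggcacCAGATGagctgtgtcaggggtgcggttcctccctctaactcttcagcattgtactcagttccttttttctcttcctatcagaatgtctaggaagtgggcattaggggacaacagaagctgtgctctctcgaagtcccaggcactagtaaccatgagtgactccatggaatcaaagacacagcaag
Cd209e, chr8:3854237-3854536: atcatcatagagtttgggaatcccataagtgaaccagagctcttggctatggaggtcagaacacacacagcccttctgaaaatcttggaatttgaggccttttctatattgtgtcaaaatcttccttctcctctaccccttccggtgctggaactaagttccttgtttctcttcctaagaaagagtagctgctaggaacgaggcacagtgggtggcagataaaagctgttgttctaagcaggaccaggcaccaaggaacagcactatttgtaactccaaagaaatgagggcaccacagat
The Cd209a window held 2 E-boxes, CACTTG and CAGATG, the Cd209d window held 1, CAGATG, and the Cd209e window held 0. Of 32851 mouse promoters of the same length, 72.3% held at least 1, with a median of 1. Promoters of Cd209d and Cd209e were identical at 58.3% of aligned positions, those of Cd209a and Cd209d at 47.6% and those of Cd209a and Cd209e at 43.6%. The same alignment gave 46.6% for the promoters of Mrc1 and Cd207 and 53.0% for those of Cd209d and Cd207, which lie on different chromosomes. A match is a description of the letters and was not set against binding data.

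Because only the 3′ ends of transcripts are read, it matters whether the paralogs share sequence there. Over the last 600 bases of their annotated transcripts, 0% of the 50-base words of Cd209a, Cd209d and Cd209e, or of Mrc1 and Cd207, occurred in another gene. For Mgl2 9.19% and for Clec10a 13.7% of the words did, Clec10a's all in Mgl2. Reads lying wholly within such shared sequence cannot be given to a single gene by sequence alone. How far this affects the values of Mgl2 and Clec10a was not measured, and they are uncertain for that reason.

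After filtering, L-cDC kept 3963 of 4939 cell barcodes with a median of 8581 UMIs (unique molecular identifiers, 1 per captured RNA molecule), and M-cDC kept 5607 of 6674 with a median of 7667. Total UMIs as deposited were 40170515 in L-cDC, against 52973960 in M-cDC. The libraries shared 6 barcodes as deposited, and 4 were kept in both; these cells held 0 member UMIs in L-cDC, against 1 in M-cDC. Of the dendritic cell genes, H2-Ab1 was seen in 85.2% of kept L-cDC cells, against 90.5% of kept M-cDC cells, and Itgax, which encodes CD11c, in 26.0% of the L-cDC cells, against 33.9% of those of M-cDC. Not all cells were conventional dendritic cells: cluster 11 (202 L-cDC cells, 1 M-cDC cell) was NK-like and cluster 18 (53 L-cDC cells, 0 M-cDC cells) B-like. With 1 library per group there is no replicate check, no p-value is given, and cells are not counted as replicates. Intervals are exact 95% intervals that cover counting error alone; UMIs gathered in a few cells make them too narrow.

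The members were found in very few of the clusters. Clusters 5, 6 and 7 made up 10.8% of L-cDC cells, against 23.0% of M-cDC cells. In both libraries they held at least 95% of the UMIs of Cd209a, Cd209d, Cd209e, Mgl2 and Clec10a. Cluster 5 (133 L-cDC cells, 964 M-cDC cells) was cDC2-like with Ffar2 and Ltb among its leading genes. Cluster 6 (255 L-cDC cells, 220 M-cDC cells) met the marker rule for pDC-like, led by Tcf4, Dab2, Cyp7b1 and Lag3. Cluster 7 (41 L-cDC cells, 106 M-cDC cells) was monocyte-like cDC2, led by Lyz2, Mmp12 and Ccl9. The member genes and the other CD209 genes had been left out of the genes used for clustering. A second cDC2-like group, cluster 8 (136 L-cDC cells, 283 M-cDC cells), held at most 6 UMIs of any member per library. It also had 891 CPM of Ccr7 in L-cDC, against 659 CPM in M-cDC, the chemokine receptor of migrating mature dendritic cells. Levels are in CPM, counts per 1000000 UMIs of the same cells and library; a UMI marks 1 molecule whatever the transcript's length.

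**Figure D1:**
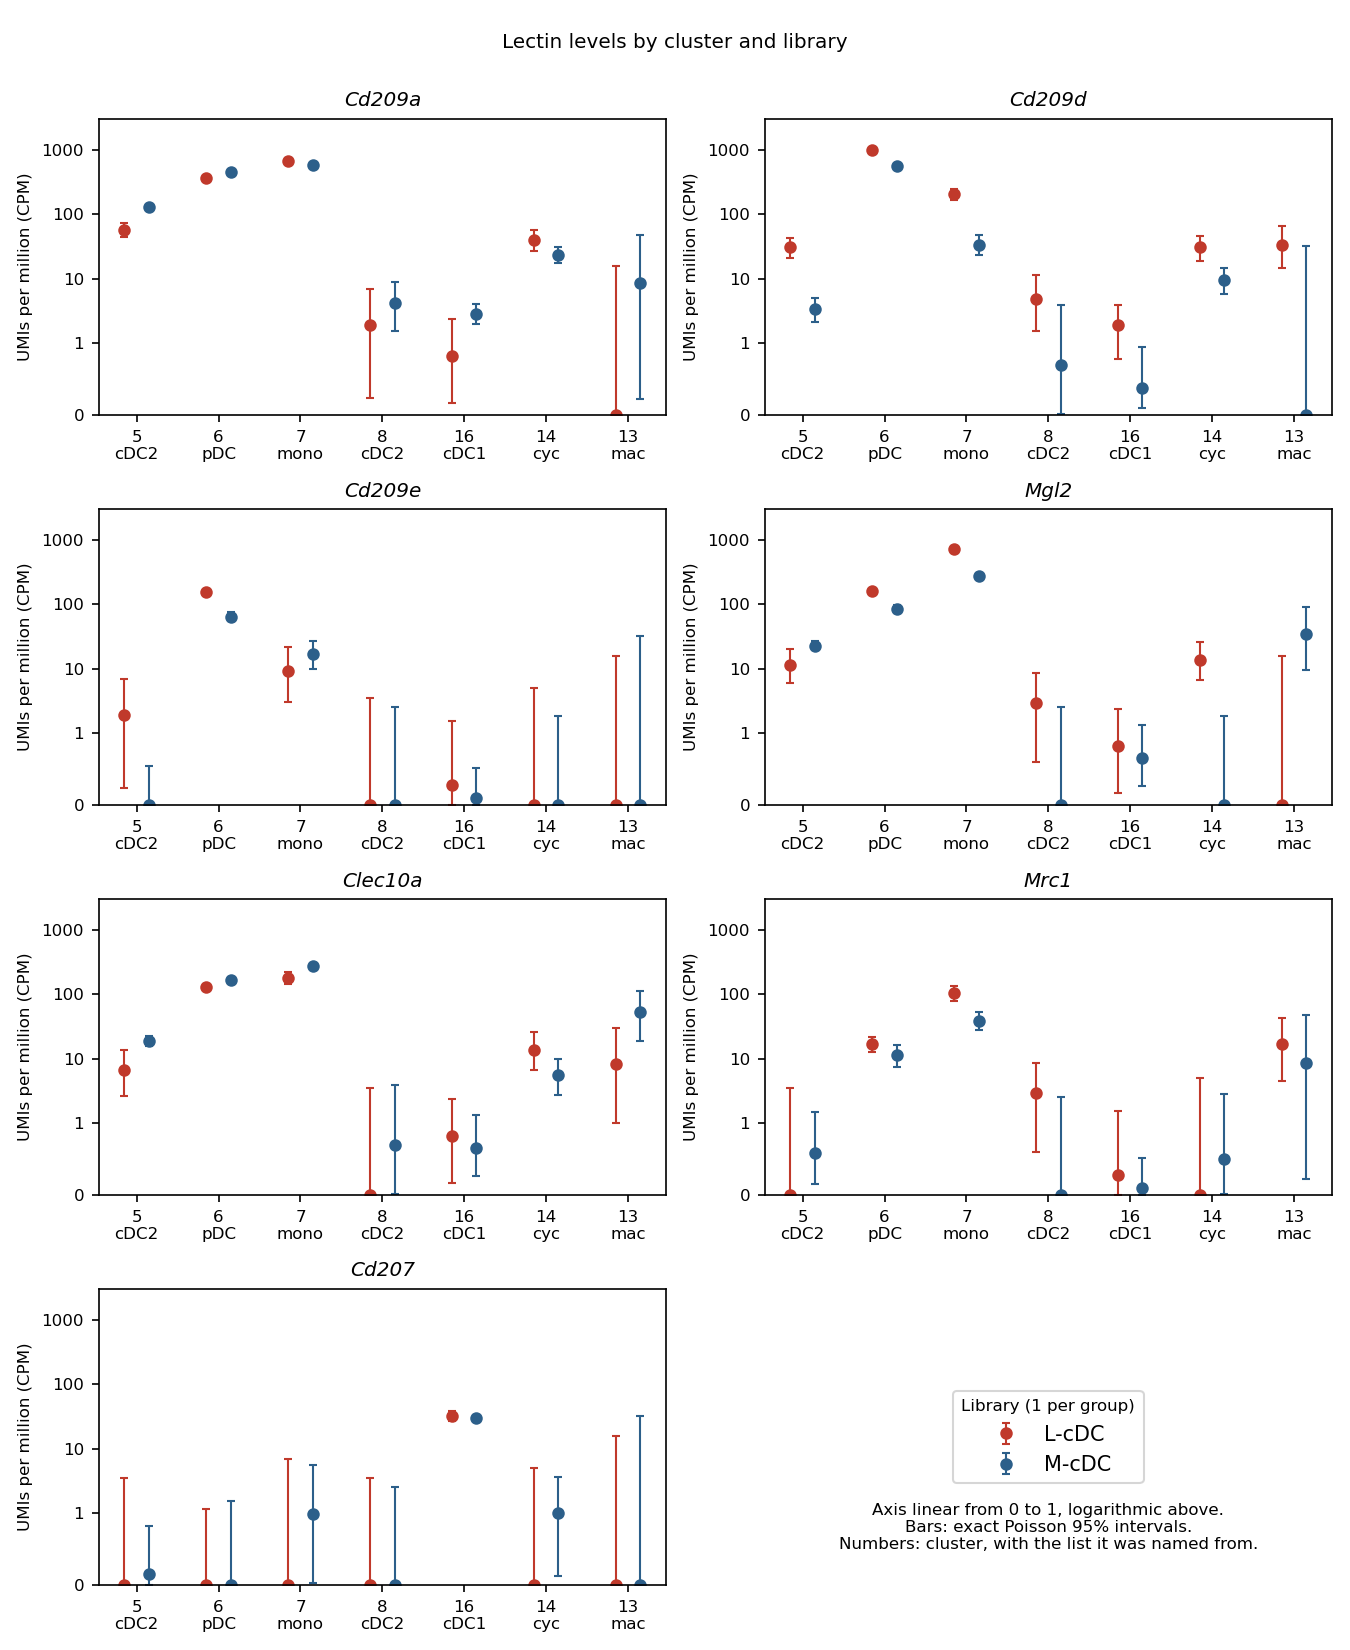
Level of each lectin (CPM, per 1000000 UMIs; linear from 0 to 1 and logarithmic above) in 7 clusters of L-cDC (red) and M-cDC (blue), with exact Poisson 95% intervals. Cd209d peaked in cluster 6 at 989 CPM in L-cDC, against 570 CPM in M-cDC, Mgl2 in cluster 7 at 722 CPM in L-cDC, against 274 CPM in M-cDC, and Cd207 was near 30 CPM in the cDC1-like cluster 16, at 32.5 CPM in L-cDC, against 29.9 CPM in M-cDC.

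Cd209a, the mouse gene closest to human DC-SIGN in its dendritic cell expression, was the least concentrated of the trio. It had 57.5 CPM in L-cDC, against 130 CPM in M-cDC in cluster 5, where a UMI was seen in 15.04% of L-cDC cells, against 29.98% of M-cDC cells. In cluster 6 the levels were 364 CPM in L-cDC, against 452 CPM in M-cDC, and in cluster 7 they were 664 CPM in L-cDC, against 580 CPM in M-cDC. Cluster 7 thus stood highest in both libraries and cluster 5 lowest of the 3. Cluster 6 held 70.3% of all Cd209a UMIs in L-cDC but 40.3% in M-cDC, where cluster 5 held a further 33.4%, against 3.66% in L-cDC.

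Cd209d, which encodes the lectin SIGNR3, was concentrated in cluster 6: the cluster held 92.9% of its UMIs in L-cDC, against 93.4% in M-cDC. The level was 989 CPM in L-cDC (95% interval 955 to 1025), against 570 CPM in M-cDC (540 to 602), with a UMI in 52.2% of L-cDC cells, against 37.3% of M-cDC cells. Cluster 7 followed with 206 CPM in L-cDC, against 33.7 CPM in M-cDC. In cluster 5 it had 30.7 CPM in L-cDC, against 3.39 CPM in M-cDC, but 1 cell carried 25 of the 32 UMIs of L-cDC. Among the remaining clusters the cycling cluster 14 (43 L-cDC cells, 140 M-cDC cells) had 30.6 CPM in L-cDC, against 9.55 CPM in M-cDC, and the top cell gave 13 of 22 UMIs in L-cDC, against 14 of 19 in M-cDC. The macrophage-like cluster 13 had 33.7 CPM in 50 L-cDC cells, against 0 CPM in 24 M-cDC cells.

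Cd209e, which encodes SIGNR4, had the fewest UMIs of the trio, 506 in all of L-cDC, against 173 in all of M-cDC. Cluster 6 held 96.4% of its UMIs in L-cDC, against 88.4% in M-cDC, at 154 CPM in L-cDC, against 64.7 CPM in M-cDC. A UMI was seen in 23.9% of cluster 6 cells in L-cDC, against 15.9% in M-cDC. Cluster 7 had 9.36 CPM in L-cDC (5 UMIs), against 16.8 CPM in M-cDC (17 UMIs), with overlapping intervals.

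Mgl2, the CD301b lectin of cDC2 and some macrophages, was highest in cluster 7, at 722 CPM in L-cDC, against 274 CPM in M-cDC. A UMI was seen there in 73.2% of L-cDC cells, against 35.8% of M-cDC cells. Cluster 6 had 161 CPM in L-cDC, against 85.4 CPM in M-cDC. Cluster 5 had the lowest level of the 3 in each library and the opposite order between them, 11.5 CPM in L-cDC, against 23.0 CPM in M-cDC.

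Clec10a, in mouse the CD301a lectin, was spread like Cd209a but lower. It had 131 CPM in L-cDC, against 167 CPM in M-cDC in cluster 6, 180 CPM in L-cDC, against 273 CPM in M-cDC, in cluster 7, and 6.71 CPM in L-cDC, against 18.8 CPM in M-cDC in cluster 5. In each of these 3 clusters M-cDC had the higher level.

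Mrc1, the endocytic mannose receptor CD206 of macrophages and monocyte-derived cells, was low throughout, with 131 UMIs in all of L-cDC and 80 in all of M-cDC. Its highest level was in cluster 7, 103 CPM in L-cDC, against 38.6 CPM in M-cDC. Cluster 6 had 16.8 CPM in L-cDC, against 11.4 CPM in M-cDC. In the macrophage-like cluster 13 it had 16.8 CPM (4 UMIs) in L-cDC, against 8.72 CPM (1 UMI) in M-cDC.

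Cd207 stood apart from the other members. The cDC1-like cluster 16 (218 L-cDC cells, 750 M-cDC cells) held 65.6% of its UMIs in L-cDC, against 89.2% in M-cDC. Its level there was 32.5 CPM in L-cDC (26.9 to 38.9), against 29.9 CPM in M-cDC (26.7 to 33.4), so the intervals overlapped. Clusters 5, 6 and 7 held 0 Cd207 UMIs in L-cDC, against 0.556% of them in M-cDC. A further 36 of the 180 L-cDC UMIs came from cluster 4, an unnamed group (355 L-cDC cells, 1 M-cDC cell) led by Clu and Nrp2, at 9.29 CPM in 19 cells. That cluster scored highest for mature dendritic cell markers, and whether it is a cell type or a property of the library cannot be told apart with 1 library per group.

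To set detection against depth, each cell was thinned to 3000 UMIs and shallower cells were left out, in cluster 6 3 L-cDC cells and 1 M-cDC cell and among cDC1-like cells 0 L-cDC cells and 9 M-cDC cells. At that depth Cd209d was seen in 45.6% of cluster 6 cells in L-cDC, against 29.7% in M-cDC, and Cd209a in 36.5% of L-cDC cells, against 47.5% of M-cDC cells. In cDC1-like cells, which should lack both genes, Cd209d was seen in 0.917% of L-cDC cells, against 0 of 741 M-cDC cells, and Cd209a in 0.459% of L-cDC cells, against 0.810% of M-cDC cells. The median depth before thinning was 11911 UMIs in L-cDC, against 10386 UMIs in M-cDC for cluster 6, and for cDC1-like cells 16299 UMIs in L-cDC, against 14317 UMIs in M-cDC. Cd207 was seen in 9.17% of cDC1-like cells in L-cDC, against 5.53% in M-cDC at 3000 UMIs, and with all UMIs in 19.3% of L-cDC cells, against 16.7% of M-cDC cells; in the NK-like and B-like cells of L-cDC the thinned share was 0.787%. Cd209d in cluster 5 was seen in 1.75% of L-cDC cells (0.213 to 6.19) and 0.662% of M-cDC cells (0.243 to 1.44) at that depth. With all UMIs its level in M-cDC was 3.39 CPM in cluster 5 (2.15 to 5.08), against 0.373 CPM in cDC1-like cells (0.102 to 0.955). These CPM intervals did not overlap, so counting error alone does not cover that difference. At 3000 UMIs the percent intervals of cDC1-like cells, 0.111 to 3.27 in L-cDC and 0 to 0.497 in M-cDC, did overlap those of cluster 5.

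The study sorted the cells to compare cDC with and without an Il7r history. A gene was compared where the higher library reached 20 CPM and both libraries together 50 UMIs, and it was counted as higher or lower past 1.5-fold. In the cDC2-like class (clusters 5, 7 and 8; 310 L-cDC cells, 1353 M-cDC cells), 5 of the 7 members could be compared. Of these, 3 were higher in L-cDC, 0 were lower and 2 were within 1.5-fold, where 15.1% of 5433 genes passed 1.5-fold, 7.20% higher and 7.93% lower. Cd209d had 56.3 CPM in L-cDC, against 6.27 CPM in M-cDC, a ratio of 8.98 (6.58 to 12.4). Its log2 ratio of 3.17 became 0.782 with the members kept among the variable genes and 1.99 with each library clustered alone. Mgl2 had 154 CPM in L-cDC, against 46.8 CPM in M-cDC, a ratio of 3.28 (2.86 to 3.77). Mrc1 had 22.2 CPM in L-cDC, against 4.65 CPM in M-cDC, a ratio of 4.78 (3.16 to 7.26), but with at least 1000 genes required per cell its log2 ratio was -0.846 in place of 2.26. Cd209a was at 160 CPM in both libraries, but its log2 ratio of 0.00 became -1.42 with at least 1000 genes per cell and -2.12 with the members kept among the variable genes. Without cluster 8 the Cd209a value was 0.481. Clec10a was at 39.5 CPM in L-cDC, against 43.7 CPM in M-cDC. Its log2 ratio of -0.147 became 0.337 without cluster 8 and -1.65 with the members kept among the variable genes. Cd209e and Cd207 were too low to compare, Cd209e with 7 UMIs in L-cDC, against 17 in M-cDC, and Cd207 with 0 in L-cDC, against 2 in M-cDC.

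The clusters of the class differed in direction, and cluster 7 gave 41 of the 310 L-cDC cells of the class and 106 of the 1353 M-cDC cells. Without cluster 7, 1 member passed 1.5-fold among those that could be compared by the same limits in place of 3. The number compared and the share of all genes past 1.5-fold were not recorded for that setting. There the log2 ratio of Cd209a was -1.86 in place of 0.00. That of Mgl2 was -1.39 in place of 1.71, but Mgl2 was then below the 20 CPM limit in both libraries and too low to compare. Within cluster 5, Cd209a was 2.27 times lower in L-cDC (1.74 to 3.00) and Mgl2 1.998 times lower (1.11 to 3.95). Cd209d was 9.05 times higher (5.14 to 16.2), but 2.68 times (0.939 to 6.80) without the top cell of each library. That gave 1 member higher and 2 lower of 3 compared, where 7.41% of 5495 genes passed 1.5-fold, 4.0% higher and 3.40% lower. Without the top cell Mgl2 rested on 4 UMIs of L-cDC and was 5.26 times lower.

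Within cluster 7, 5 members could be compared: 3 were higher in L-cDC, 1 was lower and 1 was within 1.5-fold, where 18.0% of 3449 genes passed, 8.21% higher and 9.80% lower. Cd209d was 6.11 times higher (4.13 to 9.26), Mgl2 2.63 times higher (2.25 to 3.08) and Mrc1 2.66 times higher (1.74 to 4.12). Clec10a was 1.52 times lower (1.20 to 1.93), and Cd209a had a ratio of 1.15 (1.002 to 1.31). The 41 L-cDC cells set the precision here, and the top cell held 27.3% of the Cd209d UMIs of L-cDC. Macrophage markers summed to 200 CPM in L-cDC (4 of 14 markers at 10 CPM or more; Spic, Cd5l, Fcgr1 and Slc40a1 at 0), against 357 CPM in M-cDC (6 of 14; Cd5l, Mertk and Slc40a1 at 0). C1qa had 9.36 CPM in L-cDC, against 48.6 CPM in M-cDC. Axl, Cd163, Vcam1 and Mertk were instead higher in L-cDC, Axl at 43.1 CPM, against 32.7 CPM in M-cDC. The macrophage list thus did not differ in a single direction. Markers of mature dendritic cells summed to 1400.1 CPM in L-cDC (16 of 16 at 10 CPM or more), against 695 CPM in M-cDC (13 of 16; Tmem150c at 0), and Ccr7 had 61.8 CPM in L-cDC, against 17.8 CPM in M-cDC. The part of these markers in the lectin ratios was not tested.

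**Figure D2:**
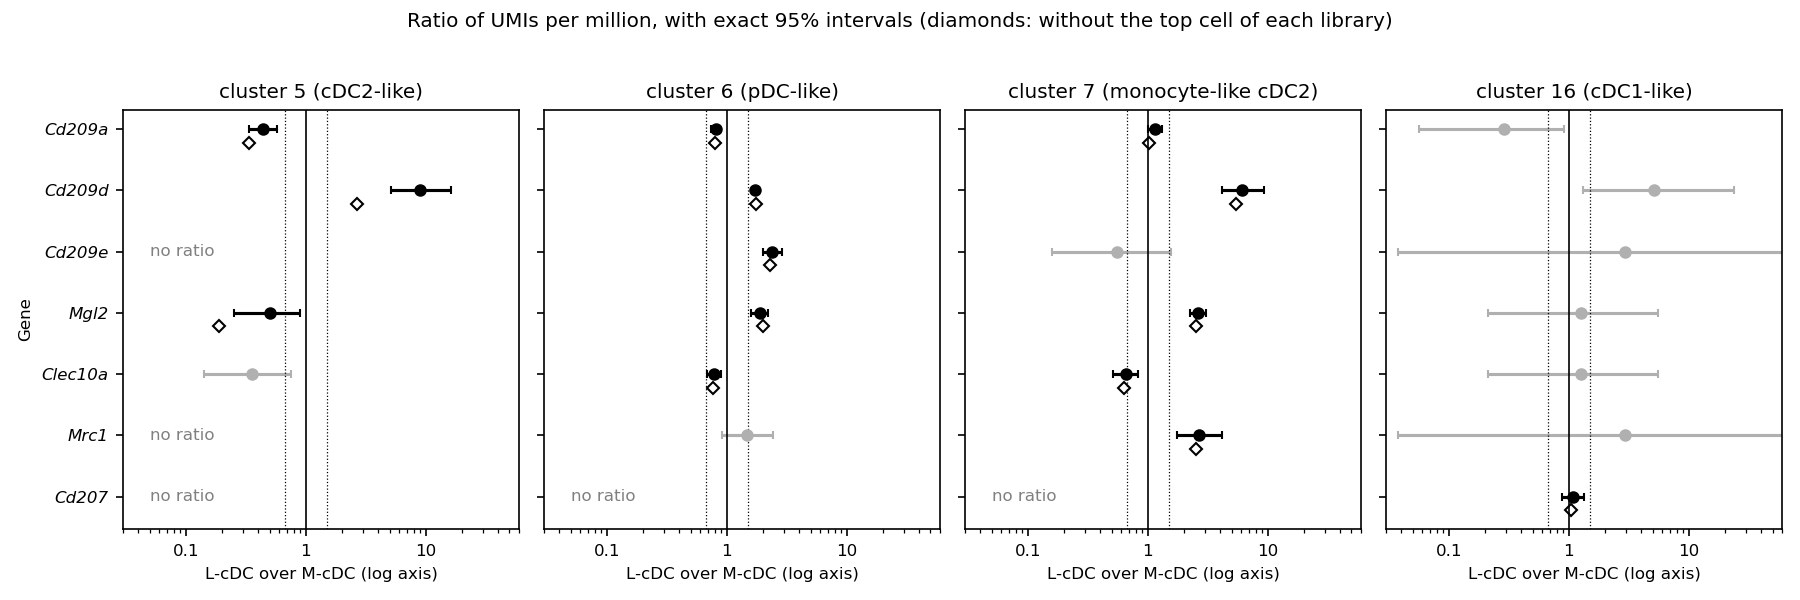
Ratio of L-cDC over M-cDC for each lectin in clusters 5, 6, 7 and 16 (log axis), with exact 95% intervals; grey points were too low to compare, diamonds leave out the top cell of each library, and dotted lines mark 1.5-fold. Mgl2 lies below 1 in cluster 5, at 0.501, and above 1 in clusters 6 and 7, at 1.88 and 2.63, and the Cd209d point of cluster 5 drops to 2.68 without the top cell.

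In the pDC-like cluster 6, Cd209d, Cd209e and Mgl2 were higher in L-cDC while Cd209a and Clec10a were within 1.5-fold on the lower side. That was 3 higher and 0 lower of 5 compared, where 10.6% of 5267 genes passed 1.5-fold, 5.05% higher and 5.52% lower. Cd209d had a ratio of 1.73 (1.63 to 1.85), Cd209e of 2.39 (1.99 to 2.88) and Mgl2 of 1.88 (1.60 to 2.23). Cd209a had a ratio of 0.806 (0.741 to 0.877) and Clec10a of 0.784 (0.681 to 0.903). Mrc1, at 53 UMIs in L-cDC, against 27 UMIs in M-cDC, was below the level limit, with a ratio of 1.47 (0.907 to 2.43). Markers of other types differed as well: 13 pDC markers summed to 2172 CPM in L-cDC, against 1453 CPM in M-cDC, and 13 monocyte-like cDC2 markers to 2604 CPM in L-cDC, against 4130 CPM in M-cDC. Siglech, 1 of the pDC markers, had 119 CPM in L-cDC, against 29.2 CPM in M-cDC. Irf7 had 33.8 CPM in L-cDC, against 114 CPM in M-cDC, and Ly6c2 101.2 CPM in L-cDC, against 122 CPM in M-cDC, so the list did not differ in 1 direction. Klk1 was at 0 in M-cDC, and 12 of 13 pDC markers reached 10 CPM in L-cDC, against 9 of 13 in M-cDC. The monocyte-like cDC2 list was mixed as well. Ifitm3 had 350 CPM in L-cDC, against 1290 CPM in M-cDC, but Lyz2 had 377 CPM, against 262 CPM. Lyz1, Csf1r, Cx3cr1 and Cd14 were also higher in L-cDC. The monocyte-like cDC2 sum was above the pDC sum in both libraries, but sums over different genes do not measure likeness. The name pDC-like is therefore the outcome of the marker rule and not a settled cell type.

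Over all kept cells, where the share of each cell type enters, 3 members could be compared and 2 were higher in L-cDC, where 7.79% of 5029 genes passed 1.5-fold, 2.35% higher and 5.45% lower. Cd209d had 91.5 CPM in L-cDC, against 29.9 CPM in M-cDC, a ratio of 3.05 (2.87 to 3.25). Mgl2 had 25.6 CPM in L-cDC, against 13.7 CPM in M-cDC, a ratio of 1.87 (1.69 to 2.07), and Cd209a 44.5 CPM in L-cDC, against 55.0 CPM in M-cDC, a ratio of 0.809 (0.760 to 0.861). Cluster 6 was 6.43% of L-cDC cells, against 3.92% of M-cDC cells, and both this share and the level within the cluster, 989 CPM in L-cDC, against 570 CPM in M-cDC, were higher in L-cDC for Cd209d. In cDC1-like cells 1 of 1 member compared, Cd207, was within 1.5-fold with a ratio of 1.09 (0.872 to 1.35), where 1.13% of 4761 genes passed, 0.483% higher and 0.651% lower. In the clusters scoring highest for mature dendritic cell markers 0 members reached the limits for comparison; there 1.66% of 4407 genes passed, 1.13% higher and 0.522% lower.

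Neighbouring paralogs did not keep 1 ratio, and a ratio of 2 genes in the same cells does not depend on how the libraries were scaled. In cluster 6 there were 2.72 UMIs of Cd209d for each UMI of Cd209a in L-cDC, against 1.26 in M-cDC, a difference of 2.15 times (1.93 to 2.39). In cluster 7 there were 0.310 in L-cDC, against 0.0581 in M-cDC, a difference of 5.32 times (3.51 to 8.25). Summed over all cells, Cd209a thus outnumbered Cd209d in cluster 7 of both libraries, while Cd209d outnumbered Cd209a in cluster 6. Cell by cell in cluster 6, Cd209d was ahead in 109 L-cDC cells, against 53 M-cDC cells, and Cd209a in 37 L-cDC cells, against 95 M-cDC cells. For each UMI of Clec10a there were 1.23 of Mgl2 in L-cDC, against 0.513 in M-cDC in cluster 6, and 4.02 in L-cDC, against 1.007 in M-cDC, in cluster 7. These are differences of 2.40 times (1.93 to 2.99) and 3.99 times (2.99 to 5.34). In cluster 5 the difference was 1.41 times (0.493 to 4.34), which counting error covers. Cd209e per Cd209d was 0.156 in L-cDC, against 0.113 in M-cDC, in cluster 6, a difference of 1.38 times (1.13 to 1.68). In cluster 7 the order was the opposite, 0.0455 in L-cDC, from 5 and 110 UMIs, against 0.5 in M-cDC, from 17 and 34 UMIs.

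**Figure D3:**
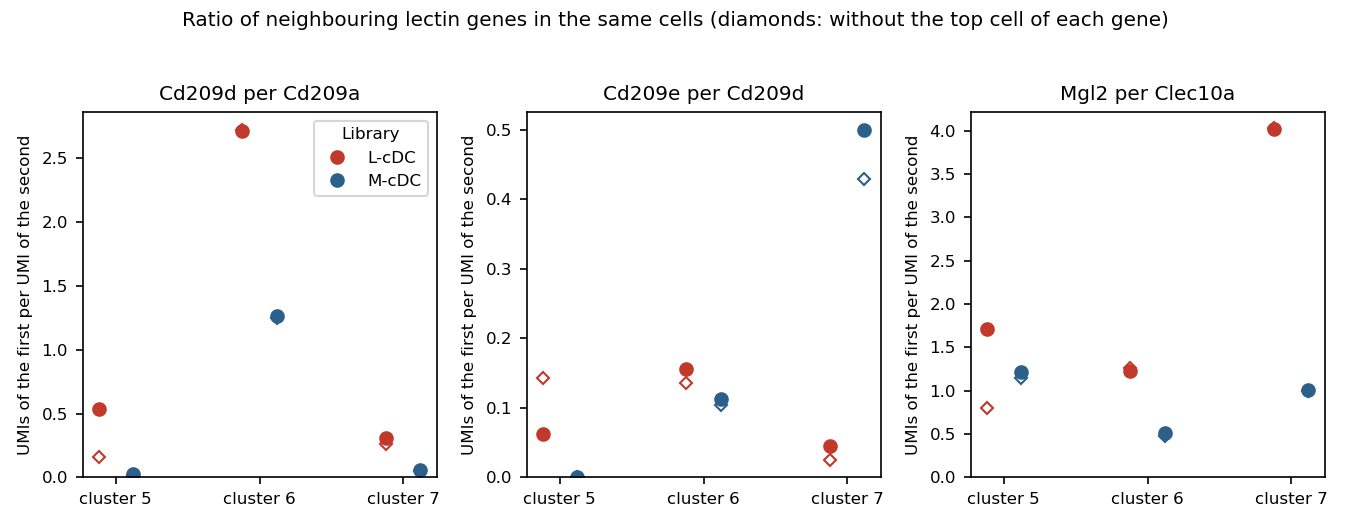
UMIs of one lectin gene per UMI of another in the same cells, by cluster, for L-cDC (red) and M-cDC (blue); diamonds leave out the top cell of each gene. In cluster 6 Cd209d per Cd209a was 2.72 in L-cDC, against 1.26 in M-cDC, and in cluster 7 Mgl2 per Clec10a was 4.02 in L-cDC, against 1.007 in M-cDC.

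Cluster 6 was not uniform, and its cells were ordered by the share of their UMIs from the 13 pDC markers and divided into 3 equal parts. This is a range and not a set of types: 44 and 33 of the 475 cells lay within 10% of the lower and the upper cut. The highest part held 102 of the 255 L-cDC cells, against 56 of the 220 M-cDC cells, and the lowest part 63, against 96. Cd209d followed the markers in both libraries, with 89.1, 546 and 1739 CPM over the 3 parts in L-cDC, against 89.4, 292 and 1606 CPM in M-cDC. Between the libraries its ratio was 0.997 (0.701 to 1.41) in the lowest part, 1.87 (1.60 to 2.20) in the middle and 1.08 (1.007 to 1.17) in the highest. The ratio of 1.73 over the whole cluster was thus not found in the lowest and highest parts. The UMIs of Cd209d for each UMI of Cd209a were 0.862, 2.52 and 2.91 over the parts in L-cDC, against 0.237, 0.801 and 2.43 in M-cDC. Cd209a was therefore ahead in the lowest part of both libraries and in the middle part of M-cDC, and the libraries were closest in the highest part.

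Cd209e showed the same order, with 9.55, 68.9 and 286 CPM in L-cDC and 6.03, 19.6 and 203 CPM in M-cDC. Cd209a had 103, 216 and 597 CPM in L-cDC, and 378, 365 and 660 CPM in M-cDC. It was therefore 3.65 times lower in L-cDC in the lowest part, and within 1.5-fold in the highest, with a ratio of 0.905 (0.805 to 1.02). Clec10a was 7.07 times lower in L-cDC in the lowest part, at 23.9 CPM in L-cDC, against 169 CPM in M-cDC. Mgl2 changed direction within the cluster. In the lowest part it had 38.2 CPM in L-cDC, against 68.3 CPM in M-cDC, a ratio of 0.559 (0.336 to 0.902). In the middle part it had 138 CPM in L-cDC, against 43.3 CPM in M-cDC, a ratio of 3.18 (2.15 to 4.84), and in the highest 233 CPM in L-cDC, against 157 CPM in M-cDC, a ratio of 1.48 (1.18 to 1.87). The median share of monocyte-like cDC2 markers in the lowest part was 14.97 per 10000 UMIs in L-cDC, against 34.9 in M-cDC, and that of mature dendritic cell markers 17.9 in L-cDC, against 8.57 in M-cDC. The highest part also held 479 Ly6d UMIs in 14 L-cDC cells, against 1 in M-cDC; without all 16 Ly6d-positive L-cDC cells of the cluster Cd209d stood at 1016 CPM, against 573 CPM in the M-cDC cells treated alike.

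**Figure D4:**
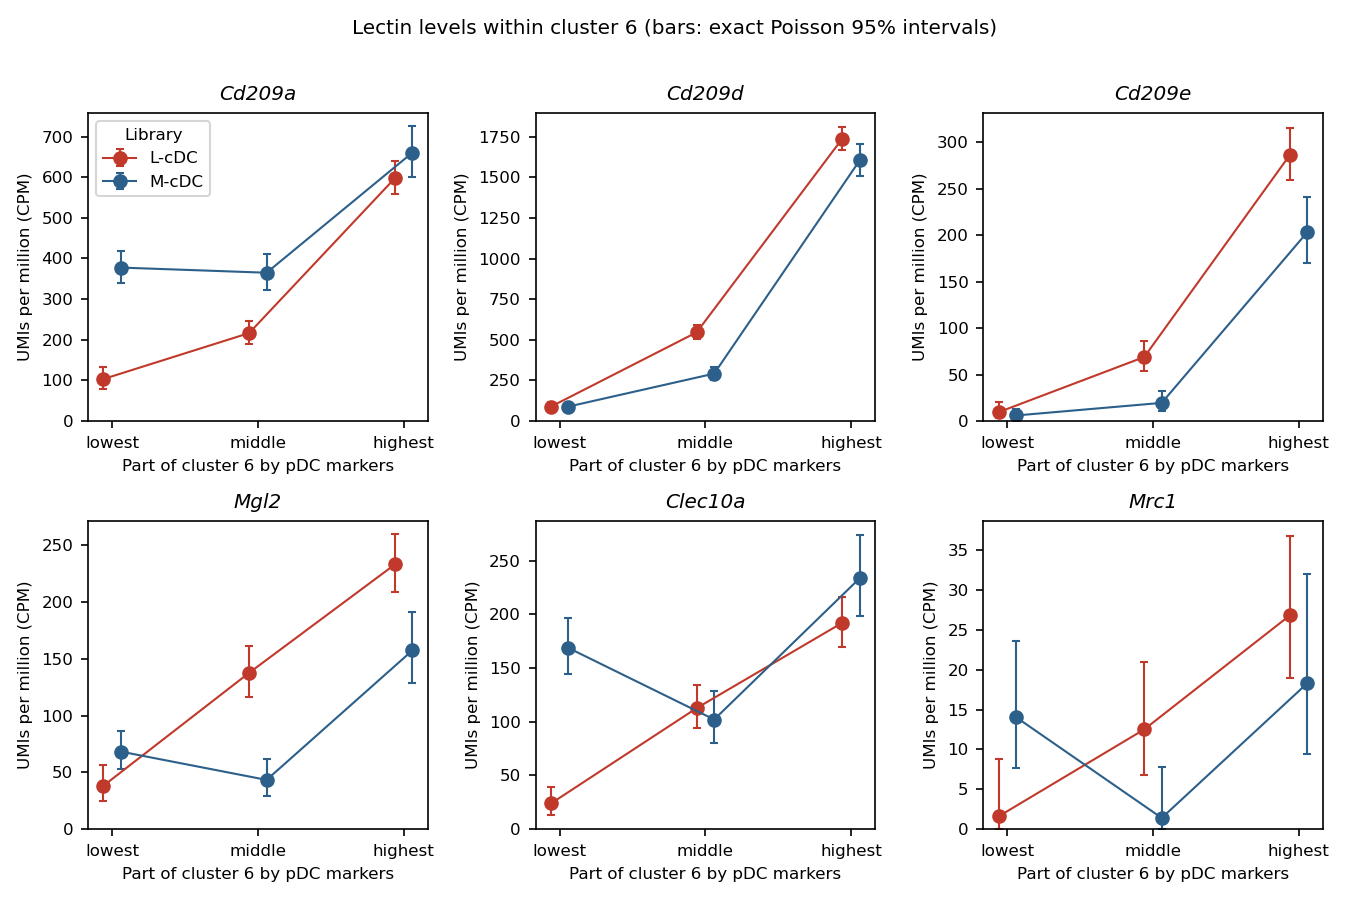
Level of 6 lectins (CPM) in the cells of cluster 6 divided into 3 equal parts by their share of pDC marker UMIs, for L-cDC (red) and M-cDC (blue), with exact Poisson 95% intervals. Cd209d ends at 1739 CPM in L-cDC, against 1606 CPM in M-cDC, whereas Cd209a starts at 103 CPM in L-cDC, against 378 CPM in M-cDC and Clec10a at 23.9 CPM in L-cDC, against 169 CPM in M-cDC.

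The members were detected in the same single cells of cluster 6. Of 137 L-cDC cells with Cd209a and 133 with Cd209d, 118 had both, where the product of the shares gives 71.5. In M-cDC 142 cells had Cd209a and 82 had Cd209d, and 73 had both, where the product gives 52.9. Nearly all Cd209e-positive cells also had Cd209a, 59 of 61 in L-cDC, against 35 of 35 in M-cDC. Likewise 59 of the 61 Mgl2-positive cells of L-cDC and 31 of the 33 of M-cDC had Cd209a. Cells differed in depth and in their share of pDC markers, whose part in these counts was not tested. At 3000 UMIs per cell, 78 L-cDC cells held both Cd209a and Cd209d, 1.86 times the product, and 50 M-cDC cells, 1.62 times.

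Cluster 7 differed in its MGL pair. Both Mgl2 and Clec10a were seen in 15 L-cDC cells, where the product gives 14.6, and in 20 M-cDC cells, where it gives 20.1. Mrc1 in that cluster was seen with Mgl2 in 13 of 13 L-cDC cells, against 9 of 14 M-cDC cells. Mgl2 itself was seen in 30 of the 41 L-cDC cells, against 38 of the 106 M-cDC cells. The product therefore gives 9.51 for L-cDC, against 5.02 for M-cDC. Relative to it, joint detection was 1.37 times for L-cDC, against 1.79 times for M-cDC. With 13 of 13 cells shared, the L-cDC value was already the largest that these shares allow. The values therefore cannot say in which library the pairing was closer.

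Cells with many lectins were common in clusters 6 and 7 and rare in cluster 5. At least 3 members were seen in 36.9% of cluster 6 cells in L-cDC, against 31.4% in M-cDC, in 53.7% of cluster 7 cells in L-cDC, against 31.1% in M-cDC, and in 0.752% of cluster 5 cells in L-cDC, against 0.622% in M-cDC. UMIs were gathered in few cells: the top 26 of the 255 L-cDC cells held 52.1% of the cluster's member UMIs, and the top 22 of the 220 M-cDC cells 50.4%. No cell had all 7, in L-cDC or in M-cDC. These counts were taken with all UMIs, and depth differed. The median in cluster 7 was 13707 UMIs in L-cDC, against 9289.5 UMIs in M-cDC, and in cluster 5 7724 UMIs, against 6798.5 UMIs. The part of depth in the counts was not tested.

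**Figure D5:**
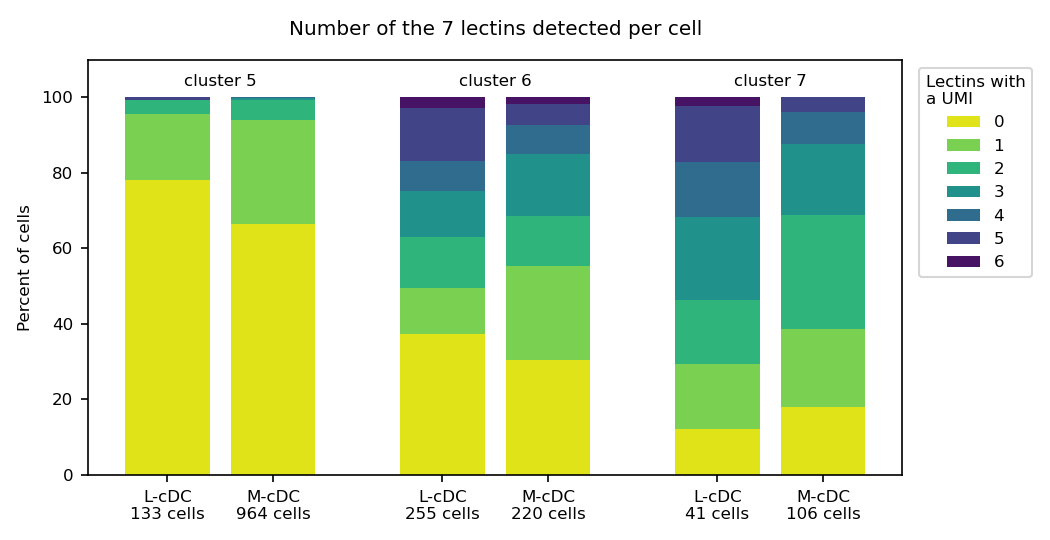
Percent of cells of clusters 5, 6 and 7 by the number of the 7 lectins with at least 1 UMI, L-cDC left of M-cDC in each pair, with cell numbers under the bars. Cells with 0 lectins make up 78.2% of cluster 5 in L-cDC, against 66.4% in M-cDC, 37.3% of cluster 6 in L-cDC, against 30.5% in M-cDC, and 12.2% of cluster 7 in L-cDC, against 17.9% in M-cDC.

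The other genes of these pathways were taken from lists chosen with earlier results known, and their counts are given for the cDC2-like class beside the median log2 ratio of all genes, -0.11. Of 4 further CD209 genes 0 could be compared; Cd209b, the SIGNR1 lectin of marginal zone macrophages, had its highest level in the macrophage-like cluster 13, at 54.7 CPM in L-cDC, against 34.9 CPM in M-cDC, from 13 of 33 UMIs in L-cDC, against 4 of 54 in M-cDC. In M-cDC clusters 6 and 7 held 15 Cd209b UMIs each and cluster 5 held 11. Of 3 further mannose receptor family genes 1 could be compared. It was Ly75, which encodes the uptake receptor DEC-205, with 38.7 CPM in L-cDC, against 13.5 CPM in M-cDC, a ratio of 2.86 (2.18 to 3.75). Ly75 was below the limits for comparison in cluster 5 and in cluster 7 taken alone. Cluster 8 gave 136 of the 310 L-cDC cells of the class, against 283 of the 1353 M-cDC cells, and its part in the ratios of these lists was not tested. Of 6 asialoglycoprotein receptor relatives 0 could be compared.

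Of 7 signalling and coat genes 6 could be compared and all 6 were within 1.5-fold, with a median log2 ratio of 0.09. Among them were Cltc, the clathrin heavy chain, with 123 CPM in L-cDC, against 101 CPM in M-cDC, Lsp1, which binds the tail of DC-SIGN, with 1334 CPM in L-cDC, against 1121 CPM in M-cDC, Fcer1g, an adaptor chain with an ITAM, with 919 CPM in L-cDC, against 1075 CPM in M-cDC, and the clathrin adaptor subunit Ap2m1 with 50.6 CPM in L-cDC, against 44.5 CPM in M-cDC. Of 11 transcription regulators 9 could be compared, of which 2 were higher, 0 lower and 7 within 1.5-fold, with a median of 0.14. Tcf4, the E-protein of pDC, had 152 CPM in L-cDC, against 90.0 CPM in M-cDC, a ratio of 1.69. Irf4, a factor of cDC2, had 54.0 CPM in L-cDC, against 34.6 CPM in M-cDC, a ratio of 1.56 (1.27 to 1.91). In cluster 5 alone Irf4 had 41.2 CPM in L-cDC, against 28.7 CPM in M-cDC, and Tcf4 195 CPM, against 96.6 CPM. In cluster 7 alone Irf4 had 56.2 CPM in L-cDC, against 54.5 CPM in M-cDC, and Tcf4 168 CPM, against 94.1 CPM. Irf4 was thus within 1.5-fold in both. Spib, with 61.3 CPM in L-cDC, against 42.9 CPM in M-cDC, and Spi1, the PU.1 factor, with 409 CPM in L-cDC, against 548 CPM in M-cDC, were within 1.5-fold. In cluster 6 Tcf4 was again the regulator past 1.5-fold, with 756 CPM in L-cDC, against 498 CPM in M-cDC, a ratio of 1.52 (1.42 to 1.63).

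Of 14 genes of alternative activation, the interleukin 4 and 13 program to which Mrc1 and Mgl2 belong in macrophages, 6 could be compared: 1 was higher, 1 lower and 4 within 1.5-fold, with a median of 0.25. The higher one was Retnla, a secreted product of alternatively activated macrophages, with 123 UMIs in L-cDC from 1 cell and 0 in M-cDC. Pdcd1lg2, the PD-L2 ligand, had 14.2 CPM in L-cDC, against 24.1 CPM in M-cDC, 1.70 times lower. Cd83 had 169 CPM in L-cDC, against 121 CPM in M-cDC and Il4ra, the interleukin 4 receptor chain, 29.5 CPM in L-cDC, against 23.3 CPM in M-cDC.

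The genes whose levels were most like each member were ranked over 33 profiles, each a cluster in 1 library, among 8254 genes, by Pearson's r of the log level. The profiles share libraries and many lie near 0, so r is a description only. Nearest to Cd209a was Ly6i, with r = 0.947, and next came Cd200r1, Cd300lg and Clec4b1. For Cd209d it was Pros1, with r = 0.948, then Dab2, Lifr, Cd14 and Pi16, and for Cd209e Apod, with r = 0.939, then Kdr, Aqp3, Pi16 and Ngfr. Mgl2 was most like Hr, with r = 0.955, then Lrp1, Emilin2, Deptor and Ptgir. Clec10a was again most like Ly6i, with r = 0.958, then Lrp1, Cd14, Slamf9 and Ms4a6d, and Mrc1 like Abca9, with r = 0.945, then Ptgir, Slamf9, Lrp1 and Zfp658. Cd207 was most like Pdia5, with r = 0.901, then Gcsam, Fam149a, Ctdp1 and the cDC1 chemokine receptor Xcr1. Among the members themselves r was 0.958 for Cd209a and Clec10a, 0.957 for Mgl2 and Clec10a and 0.901 for Cd209d and Cd209e, whereas Cd207 was between -0.214 and -0.152 with each of the other 6.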

How the data were processed

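Single-cell RNA of spleen cells was read at the 3′ end on a 10x Chromium system in 2 libraries, L-cDC and M-cDC. The deposited matrices hold whole-number UMI counts per gene and cell, not normalized; they were made with Cell Ranger 6.1.2 per the file headers, on GRCm38 (mm10) per the submitters' processing notes. Other steps before deposit are not given in the sources used here.

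Cells with at least 500 genes and at most 10% mitochondrial UMIs were kept. Doublet-like cells were removed with Scrublet in each library at the lower of the 2 thresholds, 0.277, which marked 123 L-cDC and 241 M-cDC barcodes. Cells were scaled to 10000 UMIs and clustered together without batch correction in scanpy 1.11.5 (2000 variable genes without the members and other CD209 genes, 30 components, 15 neighbours, Leiden resolution 1.0, seed 1). A cluster was named from marker lists, with at least 3 markers at 10 CPM or more and a score of at least 0.3; the limits of that rule were set after the clusters had been seen. The 7 members and the gene lists were chosen with earlier results of these data known. Counts were summed per library and cluster. A gene was compared at 20 CPM or more in the higher library and 50 UMIs or more in both together, and 1.5-fold was the limit for higher or lower. Genes named beyond the members are up to 4 per list, those of largest absolute log2 ratio among the compared genes of cDC2-like cells, and the 5 nearest to each member by Pearson correlation of log2(CPM + 10), of which 1 is not reported here; Cd209b and Tcf4 in cluster 6 were named after their values were seen. Cell type markers and leading genes of clusters are given beside the results they touch. Intervals are 95% and exact: Poisson for levels, conditional binomial for ratios and Clopper-Pearson for shares. Alternatives covered the filters, thinning to 3000 UMIs, clustering settings, scaling and left-out clusters. No test was run, since each group has 1 library.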

Additional observations from a re-analysis of the deposited data

Results flagged for a closer look

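Mgl2 was set apart because its difference between the libraries had opposite directions in clusters of the same cells. As L-cDC over M-cDC, the log2 ratio was 0.91 in the pDC-like cluster 6 and 1.40 in the monocyte-like cluster 7, but -1.0 in the cDC2-like cluster 5. The difference between these ratios was not tested, since there is 1 library per group. The cluster 5 value rests on 12 Mgl2 UMIs in L-cDC and 156 in M-cDC, and 8 of the 12 came from 1 cell. Both directions also occurred inside cluster 6: in the part of its cells with the lowest share of pDC markers Mgl2 had a ratio of 0.559 (0.336 to 0.902), in the middle part 3.18 and in the highest 1.48.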

How the results depend on the processing

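Of 272 alternative values, 203 stayed within the counting error or count range of the main value, 66 moved and 3 reversed. Some of the 203 could not have moved. The limits of 10 CPM and 20 UMIs changed which genes were compared but no ratio. Shares of UMIs were not altered by the other scaling or by leaving out the top cell. The count of 203 is therefore no measure of stability. With cells thinned to 3000 UMIs the count of members past 1.5-fold was 1 in place of 3 in cDC2-like cells and 1 in place of 0 in cDC1-like cells, where the log2 ratio of Cd207 was 0.765. Without cluster 7, chosen after seeing the data, the cDC2-like count was also 1. With each library clustered alone, also added later, the pDC-like count was 5. The number of members compared and the share of all genes past 1.5-fold were not recorded under these settings. These counts therefore have no background to be read against. Mgl2 in cDC2-like cells reversed to a log2 ratio of -1.39 with the members kept among the variable genes and to -1.39 without cluster 7, against 1.71, and Mrc1 to -0.846 with at least 1000 genes per cell, against 2.26. Without cluster 7 Mgl2 was below the 20 CPM limit, so that value is of a gene too low to compare. With the members kept, no cluster was named monocyte-like cDC2; the other causes were not tested. Without thinning, Cd209d was seen in 52.2% of cluster 6 cells of L-cDC and 37.3% of M-cDC. In pDC-like cells the log2 ratio of Cd209d ranged from 0.459 to 1.1, of Cd209e from 0.825 to 1.56 and of Mgl2 from 0.624 to 1.93, whereas those of Cd209a, -0.459 to 0.442, and Clec10a, -0.729 to 0.686, held both directions. No paired analysis was possible because each group has 1 library. In cDC2-like cells the log2 ratio of Cd209a ranged from -2.12 to 0.481 around 0.00. That of Cd209d ranged there from 0.782 to 4.21 around 3.17. Low UMI numbers limit Mrc1, and Cd209e outside cluster 6; cluster 7 is limited by its 41 L-cDC cells.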
